A study of Homo sapiens with 12 samples.

Results

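The effect of asparagine on the transcriptome of lens epithelial cells given 1,2-DHN is described here across all genes. The comparison set the 3 libraries of cells given 1,2-DHN and asparagine (DHN-A) against the 3 libraries of cells given 1,2-DHN without asparagine (DHN), which is 6 of the 12 libraries in the series. All came from SRA01/04, an immortalised human lens epithelial cell line, so the line is a model of the lens epithelium without the fibre cells or capsule around it. RNA was collected after 24 hours. 1,2-DHN is 1,2-dihydroxynaphthalene, the naphthalene metabolite that oxidises to a quinone and gives naphthalene cataract. The other 6 libraries, 3 of untreated cells (NC) and 3 of cells given only asparagine (NC-A), were used to ask whether asparagine did the same without 1,2-DHN. None of the sources used here gives the doses, which compound came first or whether replicates were grown apart. The p-values therefore reflect the variation among these libraries alone, and that variation may be technical.

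Cells that meet an electrophile such as a quinone are known to start several programmes at once. Heat shock factor HSF1 raises chaperones when proteins misfold, NRF2 raises detoxifying enzymes when its sensor KEAP1 is modified, and kinase cascades raise short-lived immediate early transcription factors. The kinase GCN2 and its relatives phosphorylate eIF2 when amino acids or protein folding fail, which raises the transcription factor ATF4 and its targets, among them asparagine synthetase. The lens relies on small heat shock proteins, the alpha-crystallins, to hold its proteins in solution, which is why chaperones are a usual readout of lens stress.

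Read depth differed with the comparison. The totals were 12381071, 20832322 and 21318168 counts in DHN 1, 2 and 3 and 27526206, 25868418 and 23816595 in DHN-A 1, 2 and 3, so every DHN-A library was deeper than every DHN library. With all libraries thinned to the smallest total, 6688 of 15965 tested genes were called, in place of 7455 of 17889. The mitochondrial share of counts ranged from 2.73% to 3.08% over these 6 libraries. In a principal component analysis of the 6, the first component (53.5% of the variance) put the DHN libraries between -35.6 and -29.5 and the DHN-A libraries between 28.1 and 36.1, while DHN 1 stood apart on the second (31.9, against -16.9 and -17.0 for DHN 2 and 3). Of the markers of lens epithelium 27 were in the table and 9 were tested; PAX6, the eye field transcription factor, lay at 28.8 to 30.9 CPM (counts scaled to the TMM-adjusted library total) in DHN and 24.4 to 26.9 in DHN-A, whereas the defining fibre crystallins CRYGC and CRYGD had no count in any library. SIX3, another eye field factor, lay at 11.2 to 12.8 CPM. CRYAB, a lens crystallin that other tissues also make, was at 9.39 to 12.1 CPM in DHN and 3.67 to 3.98 in DHN-A, and the lens factors FOXE3, SOX2, MAF and PITX3 were too low for a test. The label is thus met by part of its markers.

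Across all genes, edgeR's quasi-likelihood test called 7455 of 17889 tested genes (41.7%) at an adjusted p under 0.05, 3743 higher in DHN-A (20.9%) and 3712 lower (20.8%). Most changes were small. The median log2 change over all tested genes was 0.0091, and 90% of genes lay between the 5% and 95% points of -0.79 and 0.76. Changes of 2-fold or more numbered 272 higher (1.52%) and 398 lower (2.22%), and the lower side reached further: 89 genes fell by more than 2 on the log2 scale and 25 rose by as much. Many of the 2-fold changes were in genes near the floor: 146 of the higher and 191 of the lower averaged under 1 CPM. With a mean of at least 50 counts, 67 rose and 132 fell at least 2-fold. Among genes with at least 100 CPM on average, 14 fell and 1 rose at least 2-fold. The CPM ranges of the groups did not overlap for 9178 genes (51.3%), which is the background for every such statement that follows. For counts of list members in DHN-A against DHN, the background is 20.9% higher and 20.8% lower.

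**Figure D1:**
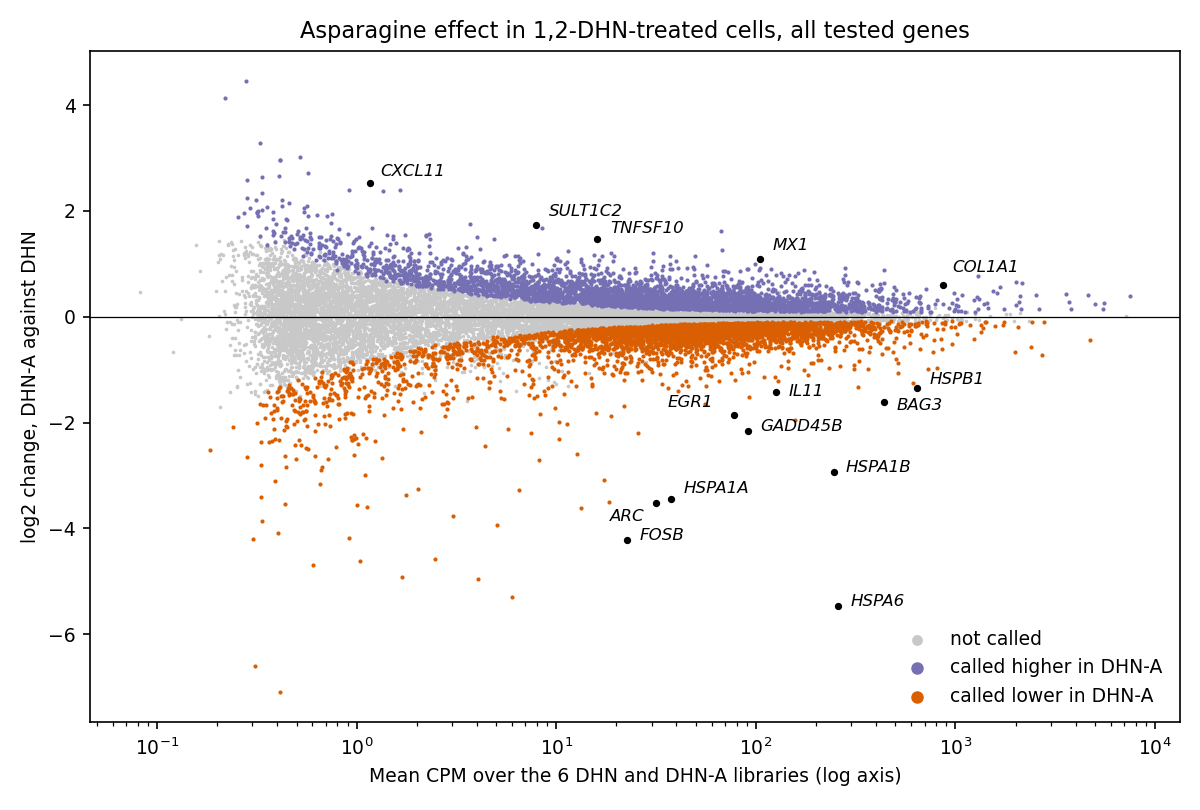
Each point is 1 of 17889 tested genes; the x axis is the mean CPM over the 6 libraries (log axis) and the y axis the log2 change in DHN-A against DHN. The falls reach further than the rises: HSPA6 lies at -5.46, while the highest labelled rise, CXCL11, is at 2.53.

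Most genes of the HSP70 and HSP90 lists and 3 of 4 small heat shock proteins fell, and the furthest fall was that of HSPA6, while DNAJ genes were mixed. HSPA6, an HSP70 made almost only under stress (chromosome 1, 161524540 to 161526910 on GRCh38), was at 505, 493 and 511 CPM in DHN and at 12.5, 11.6 and 10.04 in DHN-A. The groups were far apart, 44.0-fold, with a log2 change of -5.46 ± 0.056 (± SE, adjusted p = 1.58e-49). HSPA1B, an inducible HSP70 on chromosome 6 (31827735 to 31830255), went from 429, 434 and 436 to 59.8, 57.5 and 52.9 CPM, a change of -2.93 ± 0.072. Its twin HSPA1A (31815464 to 31817946 on chromosome 6) went from 67.1 to 69.8 CPM down to 5.50 to 6.86 (-3.44 ± 0.096). Reads can match HSPA1A and HSPA1B alike, and HSPA6 has the near-identical pseudogene HSPA7, so the split within each pair is uncertain. BAG3, the cochaperone that hands HSP70 clients to autophagy (chromosome 10, 119651370 to 119677819), lay at 661, 664 and 662 CPM in DHN and 216, 219 and 214 in DHN-A (-1.61 ± 0.036, adjusted p = 8.17e-35). HSPH1, the HSP110 exchange factor of HSP70, fell by 1.24 ± 0.036 and HSPA8, the constitutive HSP70, by 0.58 ± 0.033 from 2783 to 2903 CPM down to 1875 to 1957.

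Counted as a list, HSP70 chaperones and their cochaperones had 14 of 22 tested members lower, where 20.8% of all tested genes were, and 2 higher, with a median log2 change of -0.50 against 0.0091 over all genes. The 2 that were higher were the testis-type HSPA1L (0.66 ± 0.20), which lost its call without DHN-A 3 (0.52, adjusted p = 0.0618), and the ubiquitin ligase STUB1 (0.16 ± 0.057), which lost its call without DHN 1, DHN 2, DHN-A 1 or DHN-A 2 (0.13, 0.16, 0.14 and 0.14). The transcripts of the heat shock factors themselves, HSF1 and HSF2, were not called. HSP90 and HSP60 genes had 16 of 19 lower and 1 higher (median -0.52). CHORDC1, an HSP90 cochaperone, fell by 1.22 ± 0.044, the HSP90-bound isomerase FKBP4 by 0.99 ± 0.039, and HSPD1, the HSP60 of mitochondria, by 0.87 ± 0.039. TRAP1, the HSP90 of mitochondria, rose by 0.37 ± 0.057.

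The small heat shock proteins had 3 of 4 tested members lower and a median of -1.42. HSPB1, known as HSP27, was at 880, 913 and 956 CPM in DHN and at 362, 372 and 349 in DHN-A (-1.34 ± 0.038). HSPB8, the BAG3 partner, went from 16.4, 19.1 and 19.2 to 3.95, 5.35 and 4.09 CPM (-2.04 ± 0.13). CRYAB, alpha B-crystallin, the small heat shock protein of the lens, went from 12.1, 10.8 and 9.39 to 3.67, 3.98 and 3.8 CPM (-1.49 ± 0.17). In CRYAB the DHN-A libraries stayed above the NC libraries, which were at 0.373 to 1.06 CPM. CRYAA, alpha A-crystallin, had too few counts for a test.

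DNAJ proteins, which load clients on HSP70, did not move as a family: 12 of 32 were lower, 5 were higher and the median was -0.066. The lower members included the HSF1 target DNAJB1, at 463, 462 and 465 CPM in DHN and 188, 182 and 181 in DHN-A (-1.33 ± 0.038), and DNAJA1 (-1.06 ± 0.038). DNAJC13, of endosomes, rose by 0.39 ± 0.050. The cytosolic chaperonin TRiC with prefoldin had 9 of 14 lower and 0 higher; the 5 not called were the prefoldin subunits PFDN1, PFDN2, PFDN5, PFDN6 and VBP1, named after their values were seen. TCP1, a TRiC subunit, fell by 0.59 ± 0.038.

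To show where heat shock factor could bind, promoters of the HSP70, DNAJ and HSP90 lists were searched on both strands for the heat shock element, here 3 alternating GAA and TTC units with 2 bases of any kind between neighbours. Sequences are from RefSeq (GRCh38.p14), 250 bases up to the start, with matches in capitals. The element stood in 3 of 36 promoters of members called lower (8.33%), in 1 of 28 of the others (3.57%) and in 120 of all 27305 promoters (0.439%). The 3 genes were HSPA6, with 1 match that begins 74 bases before the start, CHORDC1, with 3 overlapping matches, and HSPA8, with 2:
HSPA6, chr1:161524290-161524539, + strand: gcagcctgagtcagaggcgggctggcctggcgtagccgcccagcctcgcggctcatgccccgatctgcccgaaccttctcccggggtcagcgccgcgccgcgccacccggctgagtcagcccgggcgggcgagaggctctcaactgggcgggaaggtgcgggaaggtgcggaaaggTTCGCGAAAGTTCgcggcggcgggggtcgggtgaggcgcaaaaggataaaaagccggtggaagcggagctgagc
CHORDC1, chr11:90223050-90223299, - strand: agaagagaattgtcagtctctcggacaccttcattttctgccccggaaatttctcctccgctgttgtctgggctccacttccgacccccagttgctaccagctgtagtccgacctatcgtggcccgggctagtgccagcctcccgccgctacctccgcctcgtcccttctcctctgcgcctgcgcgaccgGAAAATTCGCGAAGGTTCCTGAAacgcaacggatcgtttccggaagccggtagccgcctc
HSPA8, chr11:123062137-123062386, - strand: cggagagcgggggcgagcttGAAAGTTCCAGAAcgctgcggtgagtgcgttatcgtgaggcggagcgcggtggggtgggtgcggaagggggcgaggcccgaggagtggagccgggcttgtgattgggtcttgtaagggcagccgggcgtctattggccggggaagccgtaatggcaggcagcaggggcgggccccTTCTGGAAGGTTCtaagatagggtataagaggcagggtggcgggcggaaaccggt
A match is a description of these letters and not of a site in use, and of 17889 tested genes only 11429 have an entry in that table.

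Protein disposal genes fell by less. Proteasome subunits had 29 of 35 lower and 0 higher, with a median of -0.24 and no member beyond -0.60, the value of PSMC4, an ATPase of the cap. PSME4, a proteasome activator, fell by 0.53 ± 0.044. Ubiquitin genes and shuttles had 14 of 18 lower and 3 higher (median -0.27). ZFAND2A, a proteasome adaptor induced by arsenite, went from 86.9, 84.4 and 81.0 to 27.8, 26.7 and 26.2 CPM (-1.64 ± 0.060). SQSTM1, the autophagy receptor p62, fell by 0.70 ± 0.041, and NFE2L1, the factor that raises proteasome genes, rose by 0.15 ± 0.034.

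Genes of the electrophile and haem response fell in part. HMOX1, the haem oxygenase (chromosome 22, 35380361 to 35394214), was at 139, 132 and 141 CPM in DHN and 50, 46.9 and 47.2 in DHN-A (-1.51 ± 0.054). NQO1, the quinone reductase, went from 113, 117 and 124 to 79.6, 79.8 and 85.4 CPM (-0.53 ± 0.046). TXNRD1, thioredoxin reductase, fell by 0.66 ± 0.035 and GCLM, a subunit of the enzyme that starts glutathione synthesis, by 0.64 ± 0.045. NRF2 regulators and NADPH suppliers had 13 of 20 lower and 1 higher (median -0.25), with the small MAF partner MAFF at -0.69 ± 0.049 and malic enzyme ME1 at -0.58 ± 0.051. The 1 higher was the cystine transporter SLC7A11 (0.13 ± 0.048), which lost its call without DHN 2, DHN 3, DHN-A 2 or DHN-A 3 (0.11 to 0.13).

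Other redox genes split. Glutathione and thioredoxin genes had 11 of 31 lower and 8 higher (median 0.012), with the cytosolic superoxide dismutase SOD1 at -0.79 ± 0.040 and the mitochondrial SOD2 at 0.45 ± 0.038. Quinone and carbonyl reductases had 5 of 19 lower (26.3%) and 6 higher (31.6%), with a median of -0.048, where 20.8% and 20.9% of all tested genes were. AKR1C1, an aldo-keto reductase, fell by 1.32 ± 0.12 and the retinaldehyde dehydrogenase ALDH1A3 rose by 0.52 ± 0.042. AKR1B1, aldose reductase of the lens, was at 94.3, 87.9 and 94.9 CPM in DHN and 87.9, 89.3 and 85.0 in DHN-A, groups that overlap (-0.079 ± 0.048, adjusted p = 0.193). Ferritin light chain FTL fell by 0.61 ± 0.037 and the transferrin receptor TFRC rose by 0.21 ± 0.039, in a haem and iron list with 7 of 15 lower and 2 higher. In the aryl hydrocarbon receptor list 3 of 8 were lower: AHR itself (-0.49 ± 0.073), its target TIPARP, and NFE2L2, which encodes NRF2. CYP1A1 and CYP1B1, other usual targets of AHR, were not called.

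Immediate early genes, which growth factors and stress switch on within minutes, fell with asparagine. Outside the AP-1 family, 21 of 24 were lower and 0 higher (median -0.86). The 3 not called were BTG1, ZFP36L1 and IER2, named after their values were seen. EGR1, a zinc finger factor, went from 122, 119 and 124 to 33.6, 33.8 and 32.9 CPM (-1.86 ± 0.055). ARC, better known from synapses, went from 53.8, 57.7 and 63.0 to 4.53, 4.97 and 5.83 CPM (-3.52 ± 0.10). RASD1, a small GTPase, fell by 3.62 ± 0.14. FOSB, an AP-1 subunit (chromosome 19, 45467995 to 45475179), went from 45.8, 39.4 and 44.3 to 2.52, 2.41 and 1.98 CPM (-4.22 ± 0.12). FOS went from 32.7, 33.5 and 35.2 to 3.31, 2.67 and 2.98 CPM (-3.50 ± 0.12), and ATF3 fell by 1.11 ± 0.040. In the 10 tested AP-1 genes 5 were lower and 2 higher, the FOS relative FOSL1 (0.14 ± 0.036) and the repressor JDP2 (0.32 ± 0.087).

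Feedback inhibitors of the same cascades fell too: MAP kinase phosphatases and Sprouty genes had 11 of 16 lower and 2 higher (median -0.40). DUSP2, a nuclear phosphatase of ERK, went from 6.12, 5.05 and 5.76 to 0.288, 0.688 and 0.248 CPM (-3.76 ± 0.30), and DUSP1 fell by 0.39 ± 0.038. DUSP6, the cytosolic ERK phosphatase, rose by 0.28 ± 0.050. HBEGF, an EGF receptor ligand, was at 58.8 to 59.0 CPM in DHN and 21.0 to 23.3 in DHN-A (-1.40 ± 0.065), while the receptor EGFR rose by 0.36 ± 0.037. Krüppel-like factors had 5 of 14 lower and 3 higher, with KLF4 at -1.35 ± 0.070 and KLF6 at 0.34 ± 0.038.

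**Figure D2:**
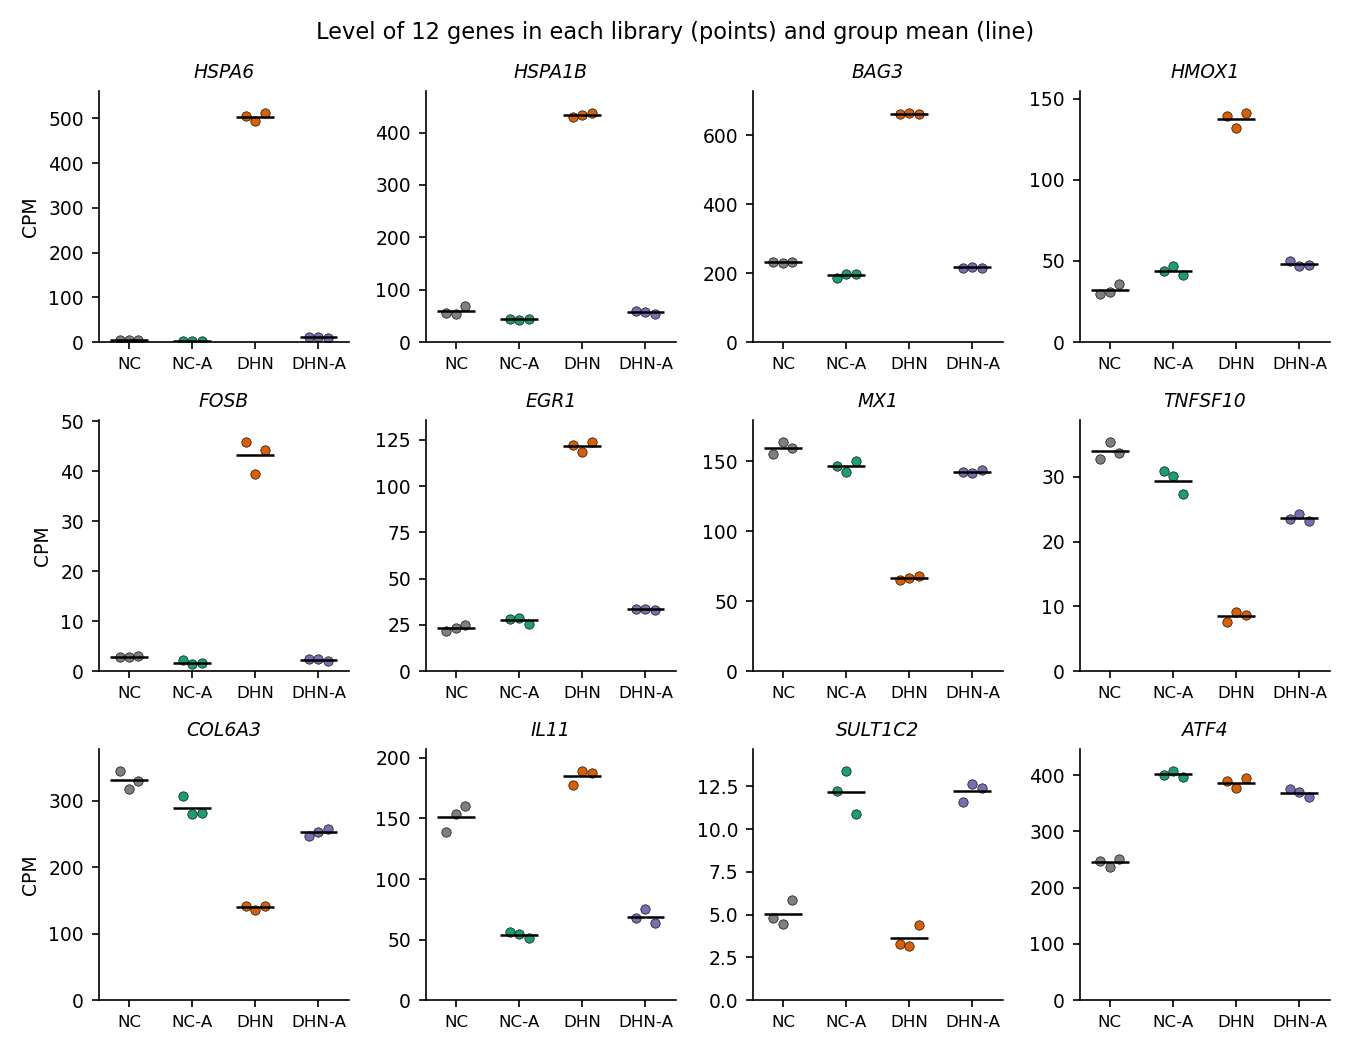
CPM of 12 genes in each of the 12 libraries (points; lines are means of 3) in untreated cells (NC) and cells given asparagine (NC-A), 1,2-DHN (DHN) or both (DHN-A). HSPA6, HSPA1B, BAG3, HMOX1, FOSB and EGR1 are highest in DHN, MX1, TNFSF10 and COL6A3 are lowest in DHN, IL11 is low and SULT1C2 high in NC-A and DHN-A, and ATF4 is lowest in NC.

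Genes of the amino acid and integrated stress response divided into some that fell, some that rose and some that were not called. ATF4, its transcription factor (chromosome 22, 39519695 to 39522685), was at 389, 377 and 395 CPM in DHN and 375, 370 and 362 in DHN-A (-0.068 ± 0.036, adjusted p = 0.128). ASNS, asparagine synthetase, was at 4.67, 4.48 and 4.28 CPM against 3.95, 4.85 and 4.05, groups that overlap (-0.058 ± 0.17, adjusted p = 0.821). The sign of ASNS turned without DHN-A 1 (0.0012), and 44.6% of its exon length overlaps another gene on the same strand. PPP1R15A, the eIF2 phosphatase subunit GADD34, fell by 1.00 ± 0.037, DDIT3, the factor CHOP, by 0.93 ± 0.091 and the leucine sensor SESN2 by 0.85 ± 0.046. The whole list of regulators had 11 of 21 lower and 6 higher (median -0.21). The higher ones included VLDLR, STC2 and NUPR1, which at 1.04 was the only member called with a change of at least 2-fold.

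Transporters and enzymes that ATF4 is known to raise differed among themselves. SLC3A2, which anchors exchangers such as SLC7A11 in the membrane, was at 355, 337 and 354 CPM in DHN and 185, 181 and 180 in DHN-A (-0.94 ± 0.039). SLC38A2, a carrier of small neutral amino acids, fell by 0.40 ± 0.039, in a transporter list with 9 of 26 lower and 5 higher (median -0.029). Enzymes of serine, one-carbon and asparagine metabolism had 11 of 23 higher, where 20.9% of all tested genes were, 2 lower and 10 not called (median 0.15). ALDH1L2, the formate-handling enzyme of mitochondria, went from 24.1, 25.4 and 21.0 to 46.2, 45.7 and 43.9 CPM (0.95 ± 0.067), and PSAT1, of serine synthesis, from 57.2 to 59.5 up to 80.7 to 89.7 CPM (0.54 ± 0.050). Cystathionase CTH was among the lower (-0.76 ± 0.12). Cytosolic aminoacyl-tRNA synthetases had 13 of 22 higher and 2 lower (median 0.15), with the tryptophan enzyme WARS1 at 0.50 ± 0.047 and the alanine enzyme AARS1 at 0.40 ± 0.037.

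Chaperones of the endoplasmic reticulum did not follow those of the cytosol: 9 of 24 were lower, 7 were higher and the median was 0.0028. HSPA5, the luminal HSP70 called BiP, was at 924, 890 and 874 CPM in DHN and 671, 641 and 663 in DHN-A (-0.44 ± 0.034), while the disulfide isomerase PDIA4 rose by 0.31 ± 0.033. ERN1, the sensor IRE1, fell by 0.69 ± 0.069 and ATF6B, a transmembrane factor of the same response, rose by 0.53 ± 0.060.

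**Figure D3:**
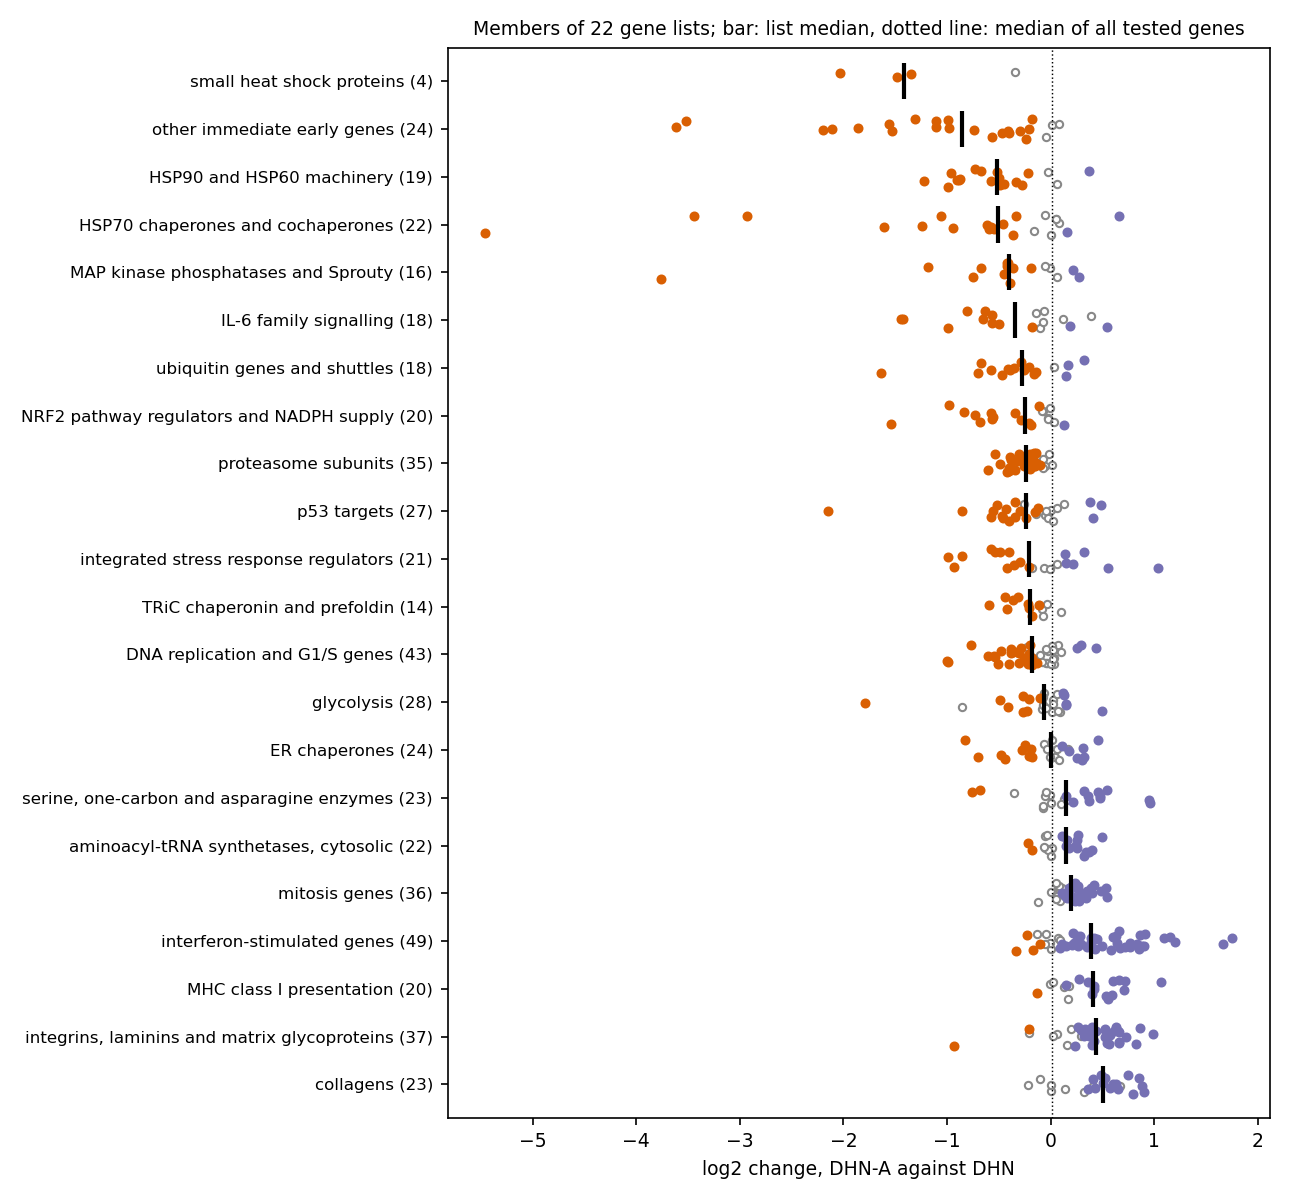
Log2 change in DHN-A against DHN for each tested member of 22 lists (number tested in brackets); filled points were called higher (purple) or lower (orange), open points were not called, bars are list medians and the dotted line is the median of all tested genes, 0.0091. Medians run from -1.42 for small heat shock proteins to 0.50 for collagens.

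Interferon-stimulated genes, which cells keep at a basal level for defence against viruses, rose with asparagine: 38 of 49 were higher and 4 lower, with a median of 0.39. MX1, a GTPase that restricts viruses (chromosome 21, 41420304 to 41459214), went from 65.1, 66.3 and 67.9 to 142, 141 and 144 CPM (1.1 ± 0.043, adjusted p = 2.49e-25). OAS3, which makes the 2-5A messenger, went from 187, 193 and 200 to 361, 371 and 364 CPM (0.91 ± 0.038). GBP4, a guanylate-binding protein, went from 27.7, 31.6 and 32.2 to 69.3, 65.9 and 70.5 CPM (1.15 ± 0.056). IDO1, which degrades tryptophan, rose by 1.76 ± 0.19 and XAF1, a partner of apoptosis inhibitors, by 1.67 ± 0.12. Against the list, IFI44 fell by 0.33 ± 0.037 and HERC5, the ISG15 ligase, by 0.23 ± 0.040. ISG15 and IFIT1, which are common markers of an interferon response, were among the 7 members not called.

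Promoters of this list were searched for the interferon element, here GAAA, 2 bases of any kind, and GAAA, on both strands. It stood in 14 of 26 promoters of members called higher (53.8%), in 7 of 9 of those that were not (77.8%) and in 839 of all 27305 promoters (3.07%). Of the members called higher that hold it, OAS3, IFI44L and EPSTI1 had the smallest p, and their 250 bases before the start are shown with matches in capitals:
OAS3, chr12:112938224-112938473, + strand: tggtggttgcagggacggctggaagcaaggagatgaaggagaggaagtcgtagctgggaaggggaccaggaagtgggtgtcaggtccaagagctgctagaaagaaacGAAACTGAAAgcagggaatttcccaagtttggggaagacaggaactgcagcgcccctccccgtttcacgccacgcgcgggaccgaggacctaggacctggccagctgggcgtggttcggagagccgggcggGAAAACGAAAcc
IFI44L, chr1:78620198-78620447, + strand: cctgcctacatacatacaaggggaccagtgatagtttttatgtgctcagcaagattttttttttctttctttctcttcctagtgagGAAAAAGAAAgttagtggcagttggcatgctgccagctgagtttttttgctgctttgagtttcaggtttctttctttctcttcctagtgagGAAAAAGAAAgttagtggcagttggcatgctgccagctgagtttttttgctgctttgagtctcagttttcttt
EPSTI1, chr13:42992242-42992491, - strand: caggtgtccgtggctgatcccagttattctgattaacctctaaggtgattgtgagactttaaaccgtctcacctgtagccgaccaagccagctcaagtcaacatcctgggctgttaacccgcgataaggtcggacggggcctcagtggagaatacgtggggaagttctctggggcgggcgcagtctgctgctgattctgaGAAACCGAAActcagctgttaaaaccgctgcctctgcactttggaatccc
IFI44L, a feedback gene of interferon signalling, rose by 0.89 ± 0.046 and EPSTI1, an interferon-responsive gene of epithelia, by 1.2 ± 0.065, from 17.8 to 18.8 up to 41.2 to 43.8 CPM.

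Genes of antigen presentation rose too. MHC class I genes had 14 of 20 higher and 1 lower (median 0.41). HLA-B, a class I heavy chain, was at 408, 390 and 398 CPM in DHN and 592, 611 and 551 in DHN-A (0.55 ± 0.038), and TAP1, the peptide pump, rose by 0.60 ± 0.048. The 1 lower was B2M, the class I light chain (-0.13 ± 0.036), which lost its call without DHN-A 2 (-0.086). Interleukin 1, CXCL chemokine and prostaglandin genes were divided, with 10 of 18 higher and 7 lower (median 0.38). CXCL11, an interferon-induced chemokine, rose by 2.53 ± 0.36 from a low level, 0.191 to 0.645 CPM, to 1.61 to 2.48. ICAM1, the leukocyte adhesion molecule, rose by 0.79 ± 0.043 in an NF-kB list with 10 of 19 higher and 3 lower (median 0.20). IL1B, interleukin 1 beta, rose by 0.41 ± 0.039 and PTGS2, the inducible prostaglandin synthase, fell by 0.90 ± 0.068. TNFSF10, the death ligand TRAIL (chromosome 3, 172505508 to 172523507), went from 7.66, 9.1 and 8.6 to 23.5, 24.3 and 23.2 CPM (1.47 ± 0.086), while its decoy receptor TNFRSF10D fell by 1.22 ± 0.063.

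Interleukin 6 family signalling genes had 10 of 18 lower and 2 higher, OSMR and SOCS2 (median -0.34). The cytokines IL6, LIF and CTF1 and the receptors IL6ST, LIFR and IL11RA were not called, while the receptor IL6R fell (-1.44). IL11, a cytokine of fibrosis (chromosome 19, 55364389 to 55370463), was at 178, 189 and 188 CPM in DHN and 67.7, 75.1 and 63.7 in DHN-A (-1.43 ± 0.054). The PIM kinases, which this family raises, fell by 0.63 ± 0.070 (PIM3), 0.56 ± 0.066 (PIM1) and 0.66 ± 0.090 (PIM2). Of growth factors, PGF, a VEGF relative, fell by 1.06 ± 0.049 and FGF5 rose by 0.69 ± 0.039.

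Collagens and adhesion genes of the extracellular matrix rose. Collagens had 15 of 23 higher and 0 lower (median 0.50). COL6A3, a chain of microfibrillar collagen VI (chromosome 2, 237324003 to 237414375), went from 142, 135 and 142 to 247, 253 and 257 CPM (0.85 ± 0.041), and COL1A1, of fibrillar collagen I, from 679, 677 and 720 to 1041, 1088 and 1021 (0.60 ± 0.035). Integrins, laminins and matrix glycoproteins had 29 of 37 higher and 2 lower (median 0.44). ITGA6, the laminin-binding integrin of epithelia, was at 119, 115 and 118 CPM against 206, 204 and 212 (0.82 ± 0.041), and LAMB1, a laminin chain, rose by 0.66 ± 0.037. The 2 lower were SPARC (-0.21 ± 0.037) and LAMA2 (-0.93 ± 0.27), which lost its call without DHN 1 (-0.69). Matrix proteases and their inhibitors had 12 of 29 higher and 7 lower (median 0.066). In that list 3 members were lower and 1 was higher by at least 2-fold. MMP3, stromelysin, fell by 2.34 ± 0.48 and MMP13 rose by 1.47. PLAU, the urokinase protease, rose by 0.89 ± 0.037 and PLAT, the tissue plasminogen activator, by 0.93 ± 0.046.

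Cell shape genes moved in both directions. Actin and contractile genes had 12 of 24 higher and 5 lower (median 0.11). Factors and cadherins of the epithelial-mesenchymal transition had 5 of 18 higher (27.8%) and 3 lower (16.7%), with 10 not called. Those shares were near the ones over all tested genes (20.9% and 20.8%). MYLK, myosin light chain kinase, rose by 0.76 ± 0.042, FLNA, filamin, by 0.42 ± 0.034 and VIM, vimentin, by 0.40 ± 0.031. CNN3, a calponin, fell by 0.40 ± 0.039. SNAI1, the repressor of E-cadherin, went from 28.9, 32.8 and 31.3 to 3.74, 3.75 and 3.47 CPM (-3.09 ± 0.12), and SNAI2 fell by 0.58 ± 0.067. BMP and TGF-beta ligands and targets had 13 of 25 lower and 6 higher (median -0.29). ID2, a BMP target, fell by 1.88 ± 0.098 and ID4 by 1.73 ± 0.13, while the latent TGF-beta binder LTBP1 rose by 0.79 ± 0.040. Among targets of Notch and Wnt 10 of 23 were lower and 5 higher, with HES1 at -0.69 ± 0.067. TUBA4A, a tubulin, went from 14.8 to 18.7 down to 4.09 to 4.2 CPM (-2.0 ± 0.13), in a list of tubulins with 5 of 15 lower and 5 higher. TUBB2A fell by 0.56 ± 0.059 and TUBA1A rose by 0.32 ± 0.037. Without DHN 2 or without DHN-A 1, 3 members of that list were higher.

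Mitosis genes rose and many replication genes fell. Mitosis genes had 23 of 36 higher and 0 lower (median 0.20), with the kinase PLK1 at 73.2, 73.3 and 74.1 CPM in DHN and 105, 108 and 109 in DHN-A (0.55 ± 0.044) and the kinesin KIF20A at 0.53 ± 0.044. Replication and G1/S genes had 23 of 43 lower and 3 higher (median -0.18). CDC6, the helicase loader, went from 114, 111 and 111 to 53.3, 54.8 and 60.2 CPM (-0.99 ± 0.049), CDC25A, a phosphatase of S phase entry, fell by 1.00 ± 0.057 and CCND1, cyclin D1, rose by 0.29 ± 0.034. Replication-dependent histones, made in S phase, had 3 of 28 higher, 3 lower and 22 not called.

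p53 targets had 15 of 27 lower and 3 higher (median -0.24). GADD45B, a stress sensor, went from 142, 147 and 157 to 33.7, 33.8 and 33.1 CPM (-2.15 ± 0.053), and CDKN1A, the cell cycle inhibitor p21, from 456 to 496 down to 332 to 357 CPM (-0.46 ± 0.040). In the BCL2 family 11 of 20 were lower and 3 higher: the killer BCL2L11, or BIM, fell by 1.06 ± 0.10 and the guardians BCL2A1 and MCL1 rose by 1.07 ± 0.14 and 0.24 ± 0.037. With libraries thinned, 6 members of that family were lower. Autophagy and lysosome genes had 17 of 40 lower and 10 higher, GABARAPL1 at -1.19 ± 0.053 among the lower.

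Metabolic lists differed in their counts. Glycolysis had 8 of 28 lower (28.6%) and 5 higher (17.9%), near the shares of all tested genes (20.8% and 20.9%), with a median of -0.065. PFKFB3, which makes the activator of phosphofructokinase, was at -0.49 ± 0.042. Hypoxia targets outside glycolysis had 11 of 30 lower and 5 higher (median -0.11). ADM, adrenomedullin, went from 40.7, 42.1 and 44.1 to 9.53, 9.21 and 8.81 CPM (-2.21 ± 0.094), and the lysyl oxidase LOX rose by 0.50 ± 0.067. Cholesterol and fatty acid synthesis had 12 of 30 higher and 4 lower (median 0.10), with the cyclase LSS at 0.49 ± 0.051 and HMGCS1 at -0.52 ± 0.068. TXNIP, the brake on glucose uptake, rose by 0.97 ± 0.059, and MYLIP, the ubiquitin ligase of the LDL receptor, fell by 3.28 ± 0.21. Osmolyte carriers, by which lens cells balance water, had 6 of 12 lower and 1 higher (median -0.26): SLC5A3, the myo-inositol carrier, went from 264, 267 and 251 to 144, 142 and 157 CPM (-0.82 ± 0.041) and SLC6A6, the taurine carrier, fell by 0.92 ± 0.055.

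Genes of gene expression itself shifted by small amounts. Cytosolic ribosomal proteins had 35 of 86 lower and 7 higher (median -0.082), and zinc finger (ZNF) genes 181 of 468 lower and 44 higher (median -0.16). CLK1, a kinase of splicing factors, fell by 0.83 ± 0.054 in a list with 11 of 19 lower and 1 higher, and small nucleolar RNA host genes had 10 of 23 lower and 1 higher. Mitochondrial ribosomal proteins had 16 of 77 higher and 15 lower, near the shares of all tested genes (20.9% and 20.8%). Among them MRPL18, which has a stress-induced cytosolic form, was at 173, 170 and 172 CPM in DHN and 81.4, 79.5 and 71.5 in DHN-A (-1.15 ± 0.046).

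Genes outside these groups changed as well. SLFN5, a Schlafen protein, rose by 1.27 ± 0.053 and RELN, reelin, by 1.00 ± 0.046. SULT1C2, a sulfotransferase, went from 3.30, 3.15 and 4.37 to 11.6, 12.7 and 12.4 CPM (1.74 ± 0.14). On the falling side NEFM, a neurofilament protein, went from 9.99, 7.82 and 5.76 to 0.252, 0.229 and 0.248 CPM (-4.96 ± 0.33). TSPYL2, a nucleosome assembly protein, went from 266, 245 and 238 to 65.9, 63.2 and 63.9 CPM (-1.95 ± 0.046). Exons of another gene on the opposite strand cover 38.3% of XAF1, 38.9% of NEFM, 20.6% of CRYAB, 31.1% of PLAU, 31.6% of DDIT3 and 22% of SQSTM1. They also cover 42.4% of STUB1, 40.5% of DUSP6, 29.3% of TRAP1, 27.5% of ALDH1A3 and 23.6% of ICAM1, among others. On the same strand 36.5% of HSPA1B, 29.4% of AHR and 17.6% of NFE2L2 are covered. No source used here gives the strand setting of the counting, so those counts may include a neighbour.

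Markers of other cell types were read in the same libraries. Of the fibroblast markers 8 were tested, of which 4 were higher and 0 lower. Of the 4, 3 (COL6A3, COL1A1 and COL1A2) are also collagens of the matrix list. The other was THY1, at 76.6 to 88.5 CPM in DHN and 94.7 to 101 in DHN-A. Not called were PDGFRB, at 28.1 to 35.2 CPM, and FAP, COL3A1 and PDGFRA, which lay lower. LUM and DCN, which define fibroblasts in tissue, stayed at or below 0.323 CPM in all 6 libraries. Immune cell markers had 3 tested and 1 lower, CD14 (-1.32 ± 0.36), keratinocyte and corneal markers 2 tested, 1 higher and 1 lower, and pigment cell markers 5 tested and 1 higher. Among the lens markers 4 of 9 were lower and 2 higher; with CRYAB and PAX6 (-0.23 ± 0.070) the lower ones were PROX1 and GJA3 and the higher ones GJA1 (0.15 ± 0.043) and CRYGS. Calls of PROX1 (-1.29 ± 0.44), GJA3 (-0.66 ± 0.25) and CRYGS (0.69 ± 0.27), which had low counts, were each lost under some alternatives. In bulk RNA a smaller number of cells of a type and less RNA per cell cannot be told apart.

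Asparagine without 1,2-DHN was compared next. NC-A against NC, which shares no library with DHN-A against DHN, called 3612 of 17889 genes (20.2%), 1668 higher (9.32%) and 1944 lower (10.9%). In both comparisons 2232 genes were called, which is 29.9% of the calls with 1,2-DHN and 61.8% of those without. Of these 2232, 1693 had the same sign (1263 with no called interaction) and 539 opposite signs. Of the 7455 calls with 1,2-DHN, 3719 had a called interaction and 3736 did not. At least 2-fold rises without 1,2-DHN numbered 138 (0.771%) and falls 54 (0.302%). The interaction, the effect of asparagine with 1,2-DHN minus its effect without, was called for 4592 genes (25.7%), 2361 higher (13.2%) and 2231 lower (12.5%); 122 higher (0.682%) and 256 lower (1.43%) interactions reached 2-fold. NC-A 1 stood apart from NC-A 2 and 3 in the whole series, and without it 4420 interactions were called.

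Chaperone and immediate early genes differed between the comparisons. HSPA6 changed by -0.37 without 1,2-DHN (adjusted p = 0.0560), and its interaction was -5.09 (adjusted p = 5.54e-26). BAG3 fell by 0.26 without 1,2-DHN and its interaction was -1.35. Of the 22 tested HSP70 genes 13 had a lower and 2 a higher interaction, and of the 24 immediate early genes 18 had a lower one; without NC-A 1 these counts were 13, 2 and 18. HMOX1 rose by 0.44 without 1,2-DHN and fell with it, an interaction of -1.95. Interferon-stimulated genes had 43 of 49 higher interactions (42 without NC-A 1), collagens 17 of 23 (18) and mitosis genes 28 of 36 (28). In NC-A against NC, 18, 16 and 16 members of these lists were lower and 2, 0 and 0 higher. Over all tested genes, 10.9% were lower and 9.32% higher there. A higher interaction can thus hold a fall without 1,2-DHN as well as a rise with it. COL6A3 fell by 0.19 without 1,2-DHN and rose by 0.85 with it, and TENM2, a teneurin, fell by 0.47 and rose by 0.90 (interaction 1.37).

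**Figure D4:**
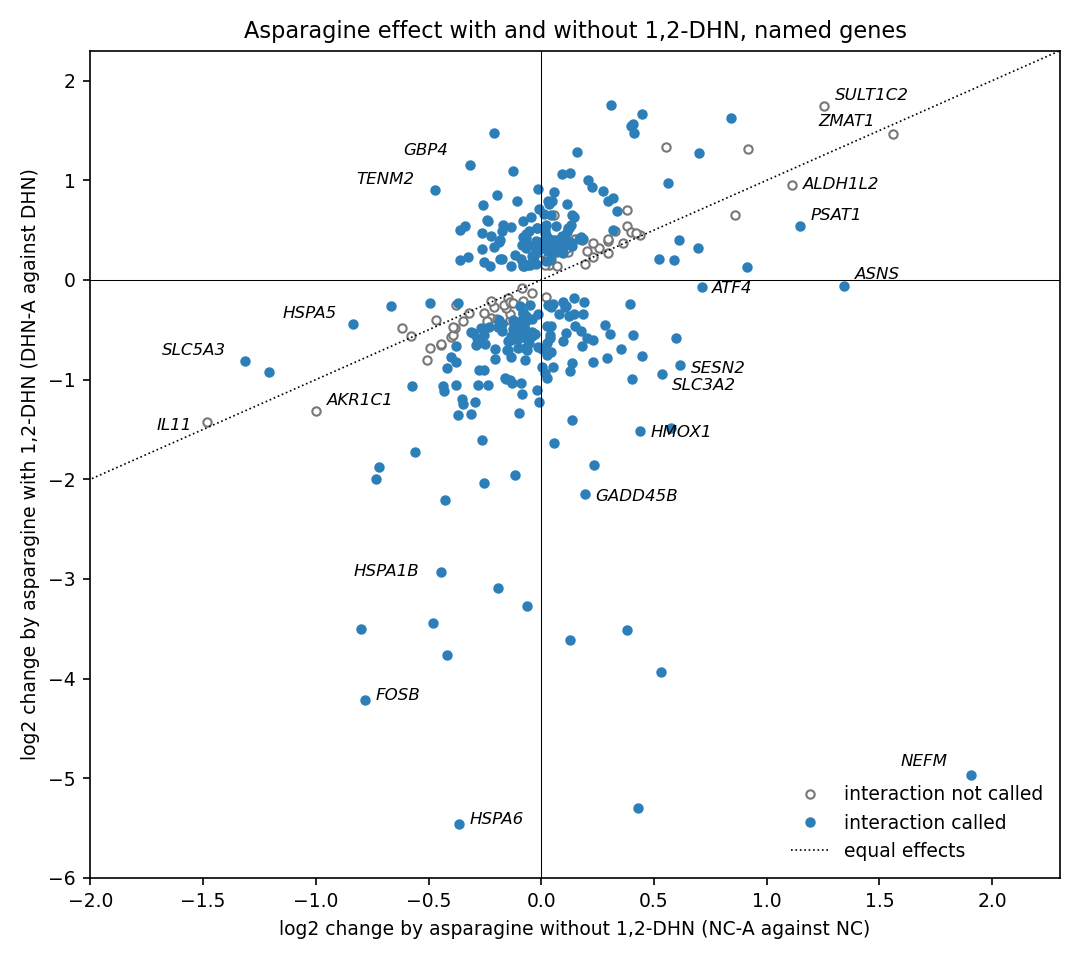
Log2 change by asparagine without 1,2-DHN (x axis) and with it (y axis) for the named genes that averaged 50 counts or more; filled points had a called interaction, open points did not, and the dotted line marks equal effects. IL11 and ZMAT1 lie near the line, HSPA6 and FOSB far below it, and ATF4 and ASNS beside 0 on the y axis.

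For some genes that moved the same way in both, the interaction was not called. IL11 fell by 1.48 ± 0.058 without 1,2-DHN and by 1.43 ± 0.054 with it, an interaction of 0.058 with an approximate 95% interval of -0.097 to 0.21. ZMAT1, a zinc finger gene, rose by 1.56 and 1.46 (interaction -0.10, -0.56 to 0.36), SULT1C2 by 1.26 and 1.74 (0.49, 0.10 to 0.87, adjusted p = 0.0616) and ALDH1L2 by 1.11 and 0.95 (-0.16, -0.35 to 0.028). An interaction that misses the threshold does not show that the effects are equal. SLC5A3 and HSPA5 fell in both, by less with 1,2-DHN, and their interactions were called: SLC5A3 fell by 1.31 without 1,2-DHN and by 0.82 with it (interaction 0.50, adjusted p = 3.61e-09), and HSPA5 by 0.84 and 0.44 (0.39, adjusted p = 1.14e-08). Their means in NC-A and NC were 146 against 363 CPM (SLC5A3) and 733 against 1308 CPM (HSPA5).

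Other genes responded to asparagine without 1,2-DHN and changed little or oppositely with it. ATF4 rose by 0.71 in NC-A against NC (interaction -0.78) and ASNS by 1.34 (interaction -1.40). ATF4 averaged 245 CPM in untreated cells and 402 with asparagine, against 387 with 1,2-DHN and 369 with both, so the 3 treated groups lay close together and above NC. SLC3A2 rose by 0.53 and fell by 0.94 (interaction -1.48), SESN2 rose by 0.62 and fell by 0.85 (-1.47) and GADD45A, a p53 target, rose by 0.60 and fell by 0.58 (-1.18). Ribosomal protein genes had 39 of 86 higher without 1,2-DHN and 48 lower interactions, small nucleolar RNA host genes 11 of 23 and 13, and glycolysis genes 20 of 28 lower without 1,2-DHN and 16 higher interactions (14 without NC-A 1).

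**Figure D5:**
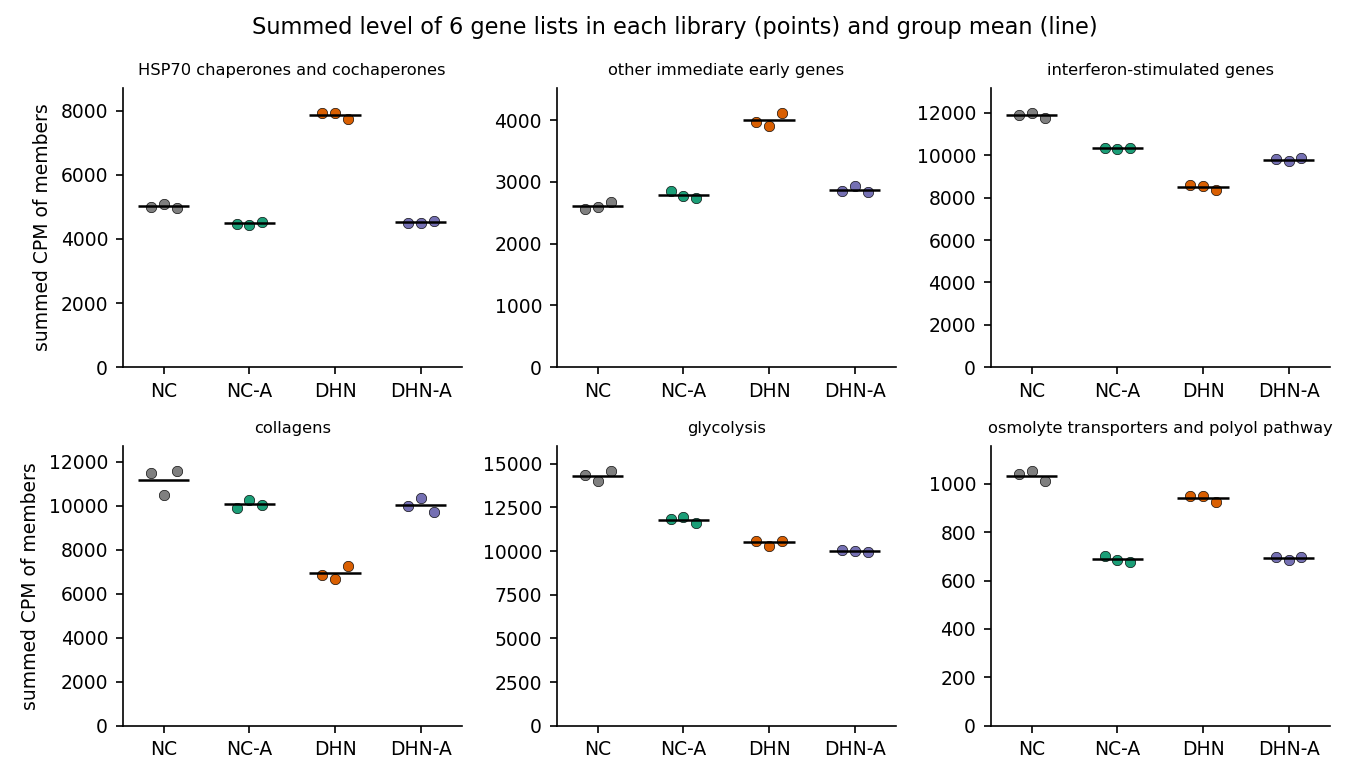
Summed CPM of the members of 6 lists in each library (points; lines are means of 3). For HSP70 genes and immediate early genes the DHN libraries are the highest and for collagens the lowest; glycolysis genes are lower in all 3 treated groups than in NC; osmolyte genes are low in NC-A and DHN-A.

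Set against untreated cells, DHN-A called 3769 of 17889 genes (21.1%), 1758 higher (9.83%) and 2011 lower (11.2%), and at least 2-fold 159 higher (0.889%) and 81 lower (0.453%). DHN called 6919 (38.7%), 3520 higher (19.7%) and 3399 lower (19.0%), and at least 2-fold 450 higher (2.52%) and 185 lower (1.03%). These comparisons share libraries with each other and with DHN-A against DHN, so the values stand side by side only. Summed HSP70 list levels were 4976 to 5089 CPM in NC, 7739 to 7933 in DHN and 4504 to 4548 in DHN-A, and summed immediate early levels 2563 to 2673, 3902 to 4116 and 2831 to 2932. On the log2 scale, BAG3 was 1.51 above NC with 1,2-DHN alone and at -0.10 with both, and DNAJB1 at 1.3 and -0.030. Some genes stayed apart from NC, in the same order: HSPA6 was at 6.86 and 1.40, ARC at 6.05 and 2.53, CRYAB at 3.87 and 2.39 and HMOX1 at 2.08 and 0.57. Interferon-stimulated list sums were 11760 to 12000 CPM in NC, 8372 to 8615 in DHN and 9747 to 9856 in DHN-A, and collagen sums 10490 to 11570, 6693 to 7248 and 9745 to 10350. Glycolysis sums did not move toward NC, at 14040 to 14560 CPM in NC, 10310 to 10600 in DHN and 9934 to 10040 in DHN-A. IL11 was at 0.29 and then -1.14, and SLC5A3 at -0.48 and -1.30.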

How the data were processed

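The authors deposited raw counts per gene symbol for 12 libraries, whole numbers whose totals differ; the reference genome was hg38 and the aligner Bowtie, per the submitters' processing notes, and libraries were stranded, per the labels' protocols. No source used here gives the aligner's version, the counting tool, its strand setting or the annotation. From 60641 symbols, edgeR's filterByExpr over the 4 groups kept 17889. A robust quasi-likelihood fit (edgeR 4.0.16, R 4.3.3) with TMM scaling and 1 mean per group used all 12 libraries, which then share an estimate of the spread (4.60% beyond counting noise). Standard errors come from each log2 change and its test and are approximate for large changes; p-values were adjusted by Benjamini and Hochberg's method across every tested gene, threshold 0.05. CPM were computed from the deposited counts and scaled totals. Coordinates are from GENCODE release 29.

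The comparison, the 65 gene lists and the rule for naming genes were chosen with earlier results of these data known. The rule took 12 called genes that rose most and 12 that fell most (50 counts or more on average, groups apart in CPM), up to 4 called members of each list in its main direction and 2 in the other, the strongest interactions, a fixed set of 16 stress genes and the highest-level genes with 2-fold changes; genes named outside it were chosen after their values were seen. Some genes that the rule takes are not reported here. A list is given by its counts and median with no test. Library pairs within a group differed by more than counting noise (mean chi-square per gene 1.77 to 4.34), so none was a repeat deposit. The procedure was tested on simulated data. Alternatives tried were DESeq2 1.42.0, limma-voom (limma 3.58.1), relative log expression scaling, no filter or a stricter one, a 2-fold minimum, thinning, fewer groups, the replicate block and each library left out.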

Additional observations from a re-analysis of the deposited data

Results flagged for a closer look

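Asparagine moved 532 of 17889 tested genes (mean of at least 50 counts) in opposite directions with and without 1,2-DHN. Each was called in both comparisons and had a called interaction in edgeR's test. Opposite calls numbered 539 of the 2232 genes called in both before the demands for 50 counts and an interaction. A gene with 2 opposite calls nearly always has a called interaction, so the interaction is no separate support. The smallest p-values of the interaction belonged to the following 6, and the value given is the log2 effect with 1,2-DHN minus that without. GADD45B, a stress sensor, had -2.35: it rose by 0.19 without 1,2-DHN and fell by 2.15 with it. PPP1R15A, the eIF2 phosphatase subunit, had -1.40 (0.40 and -1.0). SLC3A2, the exchanger heavy chain, had -1.48 (0.53 and -0.94), EGR1, the immediate early factor, -2.10 (0.23 and -1.86), and HMOX1, haem oxygenase, -1.95 (0.44 and -1.51). TENM2, a teneurin, had 1.37, falling by 0.47 without 1,2-DHN and rising by 0.90 with it. Without NC-A 1, which stands apart from its group, the changes without 1,2-DHN were 0.21, 0.40, 0.53, 0.22, 0.44 and -0.50.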

How the results depend on the processing

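Of the settings tried, the demand for a 2-fold change moved each comparison's total of calls by over 1.5 times: it left 670 of 7455 genes for DHN-A against DHN, 378 of 4592 interactions, 192 of 3612 for NC-A against NC, 240 of 3769 for DHN-A against NC and 635 of 6919 for DHN against NC. Under the other settings DHN-A against DHN had 6688 (thinned libraries, 15965 genes tested) to 7794 (only its groups, 17191 tested) calls. DESeq2 gave 6818 and limma-voom 7582. Leaving out 1 library gave 6575 to 7835, and for the interaction 4051 to 4503, for NC-A against NC 2773 to 3714, for DHN-A against NC 2782 to 4059 and for DHN against NC 6126 to 7112. With no filter on low counts the share of higher calls went from 51.4% to 62.9% for the interaction and from 46.2% to 32.8% for NC-A against NC, where higher calls went from 1668 to 1044; the cause was not tested. The 2-fold minimum also moved most list counts. It left 0 proteasome subunits and 1 HSP90 or HSP60 gene lower, in place of 29 and 16. Collagens, mitosis genes and integrins, laminins and matrix glycoproteins had 0 higher, in place of 15, 23 and 29. Interferon-stimulated genes had 5 higher in place of 38, while all 3 small heat shock proteins stayed lower. Under the other settings, thinning left 6 BCL2 family members and 2 lens markers lower and 1 histone higher. Fitting only the groups compared left 2 mitochondrial mRNAs lower. Leaving out 1 library left 3 tubulins (without DHN 2 or DHN-A 1), 1 histone (without DHN-A 1) and 10 respiratory chain genes (without DHN-A 2) higher. It left 0 keratinocyte markers lower without DHN 3 or DHN-A 1. ASNS, not called, ranged from -0.16 without DHN-A 2 to 0.0012 without DHN-A 1. Same-numbered DHN and DHN-A libraries shared little of their deviation from the group mean (correlations 0.0038, -0.0062 and 0.051). With 3 libraries per group this cannot exclude a pairing, and NC and NC-A were not examined for it. With the replicate block 7361 genes were called, and 4477 interactions. Each DHN-A library was deeper than each DHN library, so calls of genes with few counts are the least certain.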

Other observations

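Counts by gene class were as follows, with no test of a difference. Of 2206 tested long noncoding RNA genes 282 were higher and 117 lower (median log2 change 0.16), of 13310 protein-coding genes 3285 and 3397 (0.0090), and of 1618 pseudogenes 62 and 133 (-0.28). Over all genes, 20.9% were higher and 20.8% lower, and genes at 1 to 10 CPM had 900 higher and 467 lower of 4696; the part of expression level in these counts was not tested. Some pseudogenes that fell are copies of chaperone genes that fell, named after their values were seen: HSPB1P1 by 1.30 ± 0.24, CACYBPP2 by 1.13 ± 0.20 and SERPINH1P1 by 1.43 ± 0.28. Reads of the parent genes can match such copies.

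Interferon genes were also seen to rise, named after their values were known. IFNL1, a type III interferon, averaged 4.24 ± 1.25 CPM with 1,2-DHN and 8.9 ± 1.44 with asparagine added (± SD, n = 3), a log2 change of 1.11 ± 0.17, and IFNE, a type I interferon of epithelia, at 3.16 ± 0.316 and 6.08 ± 0.825 (0.95 ± 0.17). BMP6, a BMP ligand, fell by 1.88 ± 0.24 and OSGIN1, an oxidative stress gene, by 1.54 ± 0.18.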
